A study of Mus musculus with 2 samples.

Results

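Retinoic acid is made, carried and degraded by a small set of proteins, and 9 of their genes are described here in hearts of C57BL/6 mice: Aldh1a1, Aldh1a2, Aldh1a3, Rdh10, Dhrs3, Rbp4, Stra6, Crabp2 and Cyp26b1. They were chosen by symbol in the GENCODE M21 annotation, with earlier results of these data known, and all 9 were found among the 55401 genes of the count files. The mice had transverse aortic constriction (TAC), an operation that narrows the aorta and loads the left ventricle with pressure. One library came from hearts labelled TAC with Dioscin, a plant steroidal saponin given for 4 weeks after the operation (the dioscin library), and 1 library from hearts labelled TAC (the TAC library). Both groups thus carry the surgery, and hearts without surgery were not analysed here. The labels give neither age nor sex, nor whether a library pools several hearts. They also leave out which chambers were taken, and the wording on treatment is shared by both samples, so the groups rest on the treatment label.

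Retinol circulates bound to retinol-binding protein, enters cells through STRA6 and is oxidised first to retinal and then to retinoic acid. Retinal dehydrogenases of the ALDH1A family carry out the second, irreversible step, and cytochromes of the CYP26 family hydroxylate retinoic acid and so end its action. In the nucleus retinoic acid binds RAR receptors, which pair with RXR receptors on DNA, and several genes of the pathway are themselves induced by it. In the heart, ALDH1A2 is best known from the embryonic epicardium, the outer cell layer of the heart.

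The dioscin library held 17612259 counts in genes and the TAC library 16782741. With 1 library per group there was no test of the treatment. Treatment, animal and dissection cannot be told apart, and each interval below is an exact 95% interval of the counts that covers counting error only. Levels are given as CPM, counts relative to library size after TMM scaling, and ratios are dioscin over TAC library with 0.5 added to each count. A gene is called higher or lower when 1 or both libraries had 1 CPM or more of it, the difference was at least 2-fold and the interval excluded 1. This size rule applied to 15697 genes, and it called 10.5% of them higher (1655) and 8.77% lower (1377), 19.3% in all. With libraries scaled without mitochondrially encoded genes, these counts were 1275 higher and 2286 lower, a scaling that moved the median log2 ratio of all tested genes by -0.205. Heart muscle markers were abundant in both libraries, with 22660 CPM of Myh6, the main myosin heavy chain of the adult mouse heart, in the dioscin library and 20680 CPM in the TAC library.

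Of the 9 genes, 7 reached 1 CPM in at least 1 library. Of these, 4 were higher in the dioscin library (Aldh1a1, Aldh1a2, Aldh1a3 and Rbp4) and 1 was lower (Cyp26b1). Over all tested genes, the rule called 10.5% higher and 8.77% lower. Rdh10 and Dhrs3 did not pass the size rule, and Stra6 and Crabp2 stayed below 1 CPM in both libraries. All 3 retinal dehydrogenase genes were thus on the higher side and the CYP26 gene on the lower side. Aldh1a3 and Rbp4 passed the 1 CPM filter through the dioscin library alone, so their calls follow in part from the filter. The median log2 ratio of the 9 genes was 1.03, against 0.01 over all tested genes. In RNA of whole tissue, a different number of cells of a type and a different amount of RNA per cell cannot be told apart.

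**Figure D1:**
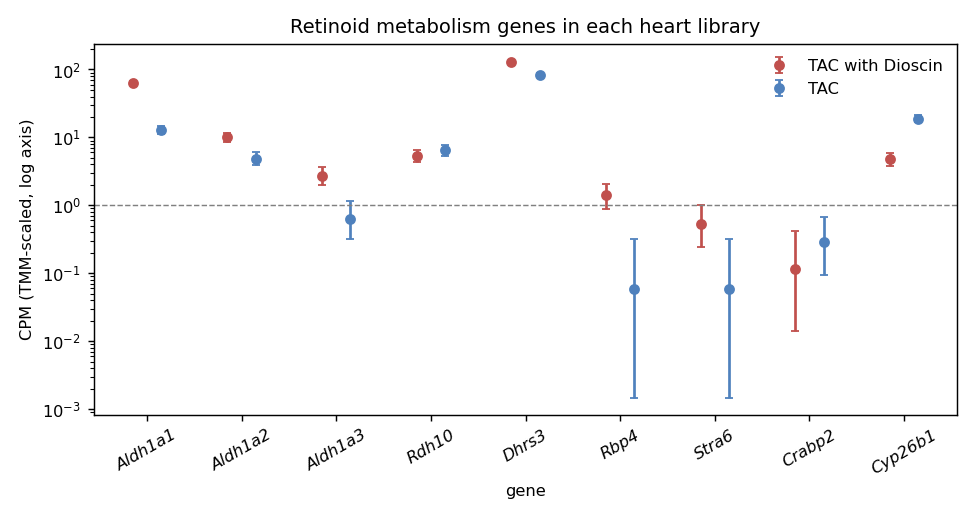
Level of each of the 9 retinoid genes in CPM (log axis) in the dioscin library and the TAC library, with 1 library each. Bars are exact 95% Poisson intervals of the counts and the dashed line marks 1 CPM. Aldh1a1 stood at 62.8 CPM in the dioscin library and 12.9 CPM in the TAC library, and Cyp26b1 at 4.73 CPM in the dioscin library and 18.9 CPM in the TAC library.

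The first oxidation, from retinol to retinal, is carried out by RDH10, and DHRS3 runs the reverse step, from retinal back to retinol. Rdh10 (ENSMUSG00000025921.7; chromosome 1, 16105774 to 16133734 on GRCm38) had 92 counts in the dioscin library and 111 in the TAC library, or 5.38 CPM (4.33 to 6.59) and 6.43 CPM (5.29 to 7.74). Its ratio of 0.837 had an interval of 0.627 to 1.11 that included 1, so no difference was detectable at this depth and scaling. When libraries were scaled without mitochondrial genes, the ratio was 0.726 (0.544 to 0.965), an interval that excluded 1. Dhrs3 (ENSMUSG00000066026.14; chromosome 4, 144892827 to 144928209) had 2200 counts in the dioscin library and 1450 in the TAC library. That is 128.5 CPM (123.2 to 134.0) in the dioscin library and 84.0 CPM (79.7 to 88.4) in the TAC library. The ratio was 1.53 (1.43 to 1.64), beyond counting error but short of 2-fold. Dhrs3 was the most abundant of the 9 genes per length of exon in both libraries, at 43.9 CPM per kb in the dioscin library and 28.7 CPM per kb in the TAC library. Its level exceeded that of 96.4% of detected genes in the dioscin library and of 95.4% in the TAC library.

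The 3 retinal dehydrogenase genes were all higher in the dioscin library, but not to the same extent. Aldh1a1 (ENSMUSG00000053279.8; chromosome 19, 20492715 to 20643465) had 1075 counts in the dioscin library and 222 in the TAC library. Its level of 62.8 CPM (59.1 to 66.7) in the dioscin library stood against 12.9 CPM (11.2 to 14.7) in the TAC library, a ratio of 4.88 (4.22 to 5.67). The log2 ratio of 2.29 was larger than that of 97.6% of all tested genes. Aldh1a2 (ENSMUSG00000013584.5; chromosome 9, 71215789 to 71296243) had 171 counts in the dioscin library and 84 in the TAC library. Its levels were 9.99 CPM (8.55 to 11.6) in the dioscin library and 4.86 CPM (3.88 to 6.02) in the TAC library. The ratio of 2.05 (1.57 to 2.70) lies just above the 2-fold limit. The call was lost under 5 of 10 alternatives, with a ratio of 1.93 when libraries were scaled by total counts, 1.99 with upper-quartile factors, 1.78 without mitochondrial genes and 1.79 after correction for GC content and length, and with a limit of 4-fold. Aldh1a3 (ENSMUSG00000015134.15; chromosome 7, 66390890 to 66427517) was scarce, with 47 counts in the dioscin library and 11 in the TAC library. Its levels were 2.75 CPM (2.02 to 3.65) in the dioscin library and 0.637 CPM (0.318 to 1.14) in the TAC library, a ratio of 4.17 (2.20 to 9.22). The interval of Aldh1a1 lies wholly above that of Aldh1a2, whereas the wide interval of Aldh1a3 overlaps both.

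The make-up of the ALDH1A family therefore differed between the libraries, a comparison within each library that no scaling affects. Aldh1a1 gave 83.1% (80.99 to 85.1, exact binomial) of the counts of the 3 genes in the dioscin library and 70.0% (64.7 to 75.02) in the TAC library. Aldh1a2 gave 13.2% (11.4 to 15.2) in the dioscin library and 26.5% (21.7 to 31.7) in the TAC library. Aldh1a3 gave 3.64% (2.68 to 4.81) in the dioscin library and 3.47% (1.75 to 6.12) in the TAC library. Per kb of exon, Aldh1a1 and Aldh1a2 stood at 12.7 and 4.41 CPM in the dioscin library, with intervals that do not overlap. In the TAC library they stood at 2.60 CPM per kb (2.27 to 2.97) and 2.15 CPM per kb (1.71 to 2.66), with intervals that overlap.

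Aldh1a1 has a close paralog in the mouse, Aldh1a7, which lies 49.5 kb away on the opposite strand with no protein-coding gene between them. Aldh1a7 had 1 count in the dioscin library and 0 in the TAC library, too few for a fold. Of the 50-base stretches in Aldh1a1 transcripts, 3.06% also occur in Aldh1a7, and of those in Aldh1a7 7.49% occur in Aldh1a1. Most of each transcript can thus be told apart at that length, although the sources used here do not give the read length. Start regions of the 2 genes are shown because they share an unbroken run of 65 bases while the counts differ so widely. They are RefSeq windows on GRCm38.p6 of 250 bases before and 50 after the annotated start, chr19:20601718-20602017 on the plus strand (the downstream of 2 listed Aldh1a1 starts) and chr19:20727507-20727806 on the minus strand. Capitals mark the shared run, which covers positions -94 to -30 in both, counted from 0 at the start site.
Aldh1a1: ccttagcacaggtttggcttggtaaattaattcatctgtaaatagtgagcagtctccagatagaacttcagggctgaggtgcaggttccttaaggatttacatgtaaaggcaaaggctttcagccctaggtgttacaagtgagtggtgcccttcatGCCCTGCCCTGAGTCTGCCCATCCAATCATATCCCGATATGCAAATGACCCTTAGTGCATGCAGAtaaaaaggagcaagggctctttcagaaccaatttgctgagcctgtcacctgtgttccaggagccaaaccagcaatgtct
Aldh1a7: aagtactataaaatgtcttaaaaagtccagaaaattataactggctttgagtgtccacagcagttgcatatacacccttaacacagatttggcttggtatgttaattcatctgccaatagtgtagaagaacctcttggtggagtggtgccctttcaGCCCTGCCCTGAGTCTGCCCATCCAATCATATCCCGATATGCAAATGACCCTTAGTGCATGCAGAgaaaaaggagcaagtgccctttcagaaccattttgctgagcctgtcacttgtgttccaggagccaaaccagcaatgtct
Aligned base for base without gaps, 177 of the 300 positions are the same. The run is thus identical in a gene with 1075 counts in the dioscin library and 222 in the TAC library and in a paralog with 1 count in the dioscin library and 0 in the TAC library. These counts are of whole genes and were not assigned to a start. At the other listed Aldh1a1 start, the longest run shared with Aldh1a7 was 8 bases.

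Among the carriers, the levels were low. Rbp4 (ENSMUSG00000024990.13; chromosome 19, 38116629 to 38125281), the blood carrier of retinol made mainly by liver and fat, had 24 counts in the dioscin library and 1 in the TAC library. Its levels were 1.40 CPM (0.898 to 2.09) in the dioscin library and 0.0579 CPM (0.0015 to 0.323) in the TAC library. The ratio of 16.5 has an interval of 3.95 to 995.7, so its size is poorly fixed. Stra6 (ENSMUSG00000032327.14; chromosome 9, 58063788 to 58153996), the membrane receptor that takes up retinol from its carrier, had 9 counts in the dioscin library and 1 in the TAC library, with a ratio of 6.39 (1.26 to 398.0) below the 1 CPM filter. Crabp2 (ENSMUSG00000004885.5; chromosome 3, 87948666 to 87953376), which brings retinoic acid to its nuclear receptors, had 2 counts in the dioscin library and 5 in the TAC library. Its ratio of 0.459 (0.0384 to 2.46) shows no difference detectable at this depth. Neither Stra6 nor Crabp2 exceeded 0.53 CPM in a library.

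Rbp4 did not stand alone. Ttr, transthyretin, the partner of retinol-binding protein in blood, had 35 counts in the dioscin library and 0 in the TAC library, at least 11.8-fold higher against a floor of 3 counts in the TAC library. Of 6 hepatocyte markers, Alb, the albumin gene, had 26 counts in the dioscin library and 0 in the TAC library, and Apoa1, an apolipoprotein, had 19 in the dioscin library and 0 in the TAC library. Apoa2, also an apolipoprotein of liver, had 13 counts in the dioscin library and 15 in the TAC library. The summed level of the 6 markers, Ttr among them, was 5.61 CPM in the dioscin library and 0.926 CPM in the TAC library, with Fgb, Alb, Apoa1 and Ttr at 0 in the TAC library. Of 8 adipocyte markers, 5 were higher as well, and Adipoq, adiponectin, had 40 counts in the dioscin library and 4 in the TAC library. All 5 passed the 1 CPM filter through the dioscin library alone, so their calls follow in part from the filter. Over all tested genes, the rule called 10.5% higher. Fabp4, the most abundant of the 8, had 2575 CPM in the dioscin library and 1344 CPM in the TAC library. Its ratio of 1.92 (1.89 to 1.95) stopped short of 2-fold. The part of either cell type in the Rbp4 difference was not tested.

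Breakdown was represented by Cyp26b1 (ENSMUSG00000063415.12; chromosome 6, 84571414 to 84593908), and it was the 1 gene of the 9 that was lower. It had 81 counts in the dioscin library and 326 in the TAC library, or 4.73 CPM (3.76 to 5.88) in the dioscin library and 18.9 CPM (16.9 to 21.04) in the TAC library. That is 3.97-fold lower in the dioscin library (3.12 to 5.15), a log2 ratio of -1.99 lower than that of all but 1.89% of tested genes. Across the other scalings, a pseudocount of 1 and the correction for GC content and length, its ratio stayed between 0.218 and 0.279. Other filters and fold limits cannot change a ratio. Cyp26a1, the CYP26 gene with the best known induction by retinoic acid, had 1 count in the dioscin library and 16 in the TAC library, and its ratio of 0.0917 (0.0015 to 0.406) excluded 1 although it stayed below 1 CPM in both. Cyp26c1 had 1 count in the dioscin library and 0 in the TAC library. No exon of the 9 genes overlaps an annotated exon of another gene on either strand.

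Synthesis and breakdown genes can be set against each other within a library, which removes the scaling. Both libraries share the same transcript lengths, so such a ratio of counts can be compared between libraries but gives no ratio of transcripts. For every count of Cyp26b1 there were 13.3 counts of Aldh1a1 (10.6 to 16.9) in the dioscin library and 0.681 (0.572 to 0.810) in the TAC library. Aldh1a2 gave 2.11 counts (1.61 to 2.79) per count of Cyp26b1 in the dioscin library and 0.258 (0.200 to 0.328) in the TAC library. The 3 Aldh1a genes together outnumbered Cyp26a1 and Cyp26b1 by 15.8 to 1 (12.6 to 19.96) in the dioscin library, with 1293 and 82 counts. In the TAC library the ratio was 0.927 (0.793 to 1.08), with 317 and 342 counts. It was thus 17.01 times as large in the dioscin library, and the counting intervals lie far apart. For the first oxidation, Dhrs3 gave 23.9 counts (19.4 to 29.8) per count of Rdh10 in the dioscin library and 13.1 (10.8 to 16.0) in the TAC library.

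**Figure D2:**
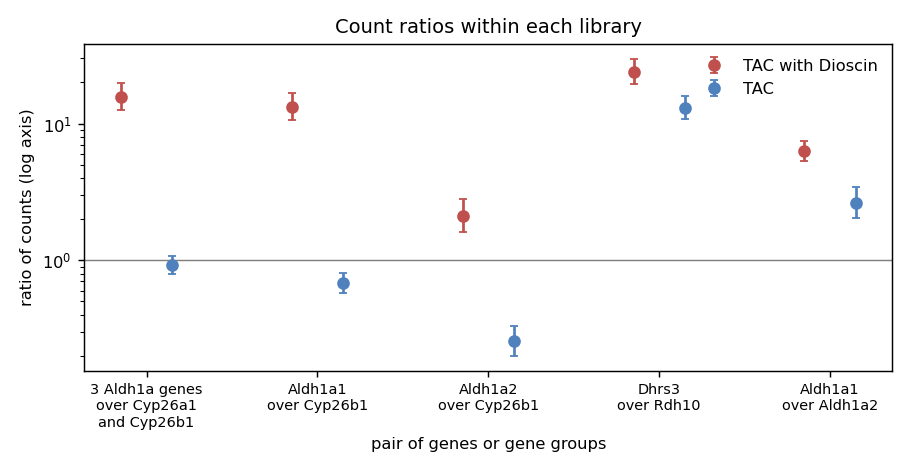
Ratio of counts between genes within each library (log axis), for the dioscin library and the TAC library, with exact 95% counting intervals. The ratio of the 3 Aldh1a genes to Cyp26a1 and Cyp26b1 stood at 15.8 in the dioscin library and 0.927 in the TAC library, and that of Dhrs3 to Rdh10 at 23.9 in the dioscin library and 13.1 in the TAC library.

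Ordered by level per length, Cyp26b1 changed its place. In the dioscin library Dhrs3, Aldh1a1 and Aldh1a2 came first, each apart from the next beyond counting error. Then came Rdh10 at 1.29 CPM per kb, Rbp4 at 1.04, Cyp26b1 at 0.884 and Aldh1a3 at 0.595, and each of these 4 overlapped its neighbour in the order. In the TAC library Cyp26b1 stood second, at 3.53 CPM per kb (3.15 to 3.93), above the intervals of Aldh1a1 and Aldh1a2. Rdh10 followed at 1.55 CPM per kb, with an interval that overlapped that of Aldh1a2. The other members were at or below 0.219 CPM per kb in the TAC library, where Crabp2, Aldh1a3 and Rbp4 overlapped.

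The wider pathway was read from a list of 50 further genes, of which 28 reached 1 CPM in at least 1 library and 7 had no count in either. Of the 28, 4 were higher in the dioscin library and 2 lower, where the rule called 10.5% of all tested genes higher and 8.77% lower. The median log2 ratio of the 28 was 0.18, against 0.01 over all tested genes. The counts were 2 higher and 4 lower when libraries were scaled without mitochondrial genes. Among 16 enzymes that interconvert retinol and retinal, 6 reached 1 CPM, and of these 2 were higher and 1 was lower. Adh1, an alcohol dehydrogenase that oxidises retinol among other alcohols, had 999 counts in the dioscin library and 231 in the TAC library. Its levels of 58.4 CPM in the dioscin library and 13.4 CPM in the TAC library give a ratio of 4.36 (3.78 to 5.06). Dhrs4, a retinal reductase, had a ratio of 2.21 (1.91 to 2.56), from 34.4 CPM in the dioscin library and 15.6 CPM in the TAC library, and its call was lost when scaled without mitochondrial genes, after the GC and length correction and at 4-fold. Rdh5, the 11-cis-retinol dehydrogenase known from the eye, stood at 6.89 CPM in the dioscin library and 13.8 CPM in the TAC library, 2.003-fold lower and so on the edge of the rule, and its call was lost with a pseudocount of 1 and at 4-fold. Rdh14, a retinal reductase, had 30.7 CPM in the dioscin library and 17.1 CPM in the TAC library, a ratio of 1.79 (1.55 to 2.07).

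Of 9 storage and transport genes, 5 reached 1 CPM and 1 of these was higher, Ttr, which passed the 1 CPM filter through the dioscin library alone. Rbp7, a retinol carrier of endothelium and fat, was the most abundant of the list per length, at 63.3 CPM per kb in the dioscin library and 31.9 CPM per kb in the TAC library, and its ratio of 1.98 (1.75 to 2.24) stopped short of 2-fold. Lrat, which stores retinol as esters, had 4 counts in the dioscin library and 3 in the TAC library. Fabp5, a carrier that can bring retinoic acid to another nuclear receptor, had a ratio of 1.13 (1.05 to 1.21).

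None of the 6 receptor genes passed the size rule, and all 6 reached 1 CPM in both libraries. Rarg, the most abundant RAR gene, had 442 counts in the dioscin library and 812 in the TAC library, a ratio of 0.549 (0.488 to 0.617), and it was called lower when libraries were scaled without mitochondrial genes and with a limit of 1.5-fold. Rarb had 281 counts in the dioscin library and 415 in the TAC library, a ratio of 0.684 (0.585 to 0.797). Rara had 223 counts in the dioscin library and 244 in the TAC library, with an interval of 0.766 to 1.11 that included 1. Rarg gave 46.7% (43.5 to 49.96) of the counts of the 3 RAR genes in the dioscin library and 55.2% (52.6 to 57.8) in the TAC library. Rxra and Rxrb had ratios of 1.21 (1.08 to 1.36) and 1.14 (1.02 to 1.28), and Rxrg had 0.742 (0.637 to 0.862). None of the 6 coregulator genes passed the rule either. Ncoa3, a coactivator and the most abundant of them per length, had a ratio of 0.793 (0.737 to 0.853).

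**Figure D3:**
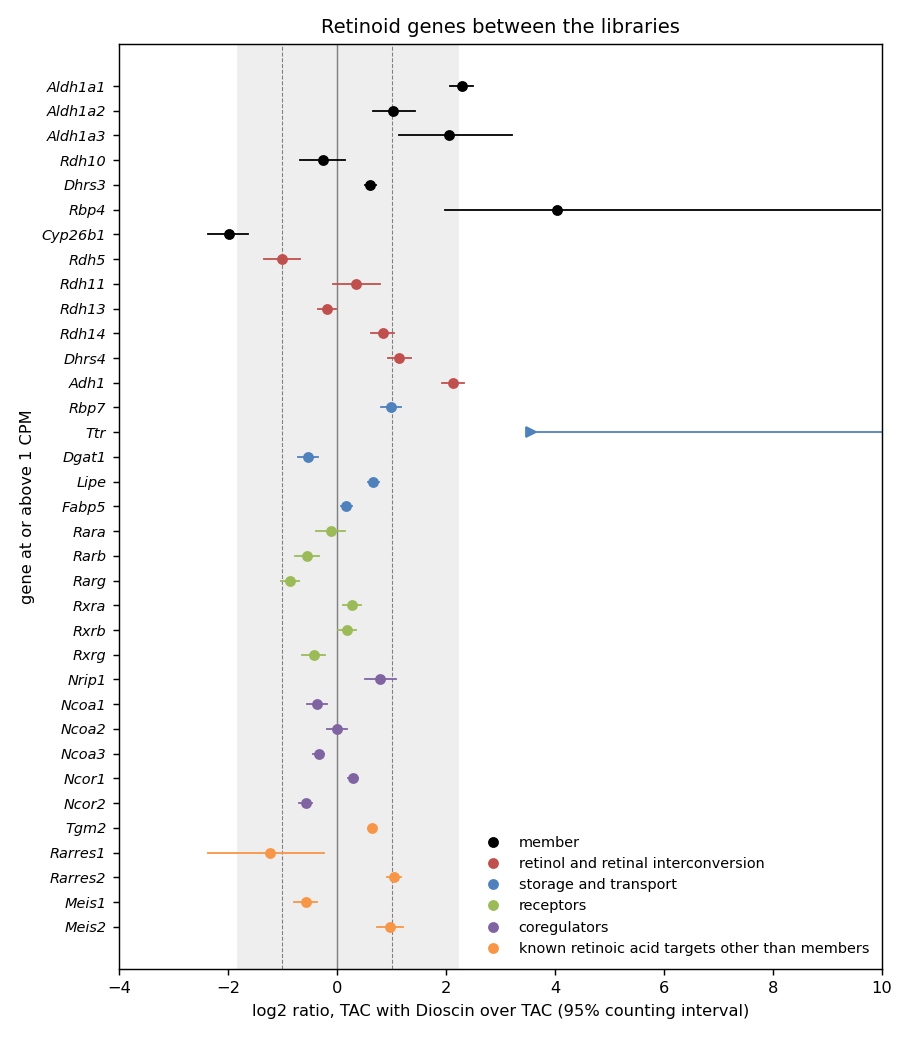
Log2 ratio (dioscin over TAC library) for the retinoid genes at or above 1 CPM, by role, with 95% counting intervals. The grey band spans the central 95% of all tested genes (-1.81 to 2.23), dashed lines mark 2-fold, and the arrow for Ttr starts at its bound against 3 counts. Aldh1a1, Rbp4 and Ttr lie right of the band, Cyp26b1 at -1.99 left of it, and the receptors between -0.86 and 0.28.

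Of 14 genes known from other systems to respond to retinoic acid, 7 reached 1 CPM, with a median log2 ratio of 0.64, against 0.01 over all tested genes. Over all 14, of which 3 had no count in either library, the median was 0.16. The filter left out Cyp26a1, with 1 count in the dioscin library and 16 in the TAC library. Of the 7, Rarres2 passed as higher and Rarres1 as lower, where the rule called 10.5% of all tested genes higher and 8.77% lower. Rarres2, the chemerin gene, stood at 80.1 CPM in the dioscin library and 38.9 CPM in the TAC library, a ratio of 2.06 (1.88 to 2.26), and its call was lost with scaling by total counts or without mitochondrial genes, after the GC and length correction and at 4-fold. Rarres1 had 12 counts in the dioscin library and 29 in the TAC library, a ratio of 0.427 (0.194 to 0.843). It passed the 1 CPM filter through the TAC library alone, and its call was lost under the 5 CPM filter and at 4-fold. Tgm2, tissue transglutaminase and the most abundant of the list per length, had a ratio of 1.56 (1.49 to 1.64). Among members that retinoic acid is known to induce, Cyp26b1 was lower while Dhrs3 had a ratio of 1.53. Stra6 stayed below 1 CPM in both libraries, and its ratio of 6.39 had a wide interval, 1.26 to 398.0, that excluded 1.

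Rarb and Cyp26a1 hold the textbook retinoic acid response element at their start sites, a pair of half-sites 5 bases apart. Their start regions are shown because both genes were on the lower side in the dioscin library, a choice made by their values. Rarb did not pass the size rule, and Cyp26a1 stayed below 1 CPM in both libraries. The start region of Cyp26b1 is shown beside them as that of the member with the largest deficit. The search took the half-site AGGTCA, its variant AGTTCA or the variant written GGTTCA, followed after 5 bases by another of them, on either strand. This pattern (DR5) was found in 20 of 32851 RefSeq start regions of 300 bases, or 0.0609%. Single half-sites, which the DR5 pattern contains, were found in 35.02%, and TATAAA in 13.6%. The windows on GRCm38.p6 are chr19:37697558-37697857 on the plus strand, chr14:16575427-16575726 on the minus strand and chr6:84593761-84594060 on the minus strand. Capitals mark the DR5 match in Cyp26a1 and Rarb and the TATAAA match in Cyp26b1.
Cyp26a1: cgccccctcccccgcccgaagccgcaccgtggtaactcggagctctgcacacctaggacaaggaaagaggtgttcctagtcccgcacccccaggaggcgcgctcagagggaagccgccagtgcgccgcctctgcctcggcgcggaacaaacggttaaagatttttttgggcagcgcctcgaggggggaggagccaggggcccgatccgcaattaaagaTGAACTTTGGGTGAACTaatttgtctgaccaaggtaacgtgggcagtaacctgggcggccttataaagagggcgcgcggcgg
Rarb: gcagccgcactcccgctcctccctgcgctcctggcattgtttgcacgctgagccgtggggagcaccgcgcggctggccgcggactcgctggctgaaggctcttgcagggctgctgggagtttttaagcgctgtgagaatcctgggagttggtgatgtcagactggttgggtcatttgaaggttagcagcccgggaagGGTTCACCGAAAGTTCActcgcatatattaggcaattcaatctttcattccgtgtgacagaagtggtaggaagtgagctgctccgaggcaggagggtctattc
Cyp26b1: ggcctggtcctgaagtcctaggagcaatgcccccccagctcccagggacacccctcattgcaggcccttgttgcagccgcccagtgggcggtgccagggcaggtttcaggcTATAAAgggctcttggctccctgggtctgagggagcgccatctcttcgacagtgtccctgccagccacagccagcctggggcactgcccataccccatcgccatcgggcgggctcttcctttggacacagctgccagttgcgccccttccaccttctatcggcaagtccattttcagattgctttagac
The DR5 match lies at positions -32 to -16 in Cyp26a1, read on the opposite strand, and at -53 to -37 in Rarb. The TATAAA match of Cyp26b1 lies at -139 to -134. Cyp26a1 also holds TATAAA, unmarked above, at 29 to 34, and a window of Rbp4 holds it at -28 to -23. Of the 9 genes, 6 had a start region in the table, and none of their 13 windows held the DR5 pattern or the same half-sites 1 or 2 bases apart. A single half-site was found in 1 of these windows, that of Stra6. Other spellings of the half-site, and sequence outside these windows, were not searched. Of the 20 genes with the pattern, 13 were matched in the count files and 5 reached 1 CPM, of which 1 was higher and 0 lower. That gene, named after its value was seen, was Ppbp, a platelet chemokine, with 74 counts in the dioscin library and 31 in the TAC library. Over all tested genes, the rule called 10.5% higher and 8.77% lower. The median log2 ratio of the 5 genes was 0.34, against 0.01 over all tested genes. Of the 5, 2 lay below 0, Rarb among them.

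Markers of several cell types differed between the libraries too. For the counts of calls below, the size rule called 10.5% of all tested genes higher and 8.77% lower. Of 13 mesothelial and epicardial markers, 10 were higher and 0 lower, and their sum was 237.1 CPM in the dioscin library and 32.7 CPM in the TAC library. Msln, mesothelin, had 820 counts in the dioscin library and 4 in the TAC library, and Krt8, Krt18 and Bnc1 were at 0 in the TAC library. Of the 10, only Upk3b and Gpm6a also reached 1 CPM in the TAC library. The other calls thus follow in part from the filter. Wt1 and Tbx18, regulators of the epicardium, had ratios of 0.965 (0.812 to 1.15) and 0.811 (0.627 to 1.04). Of 9 fibroblast markers, 5 were higher, with a sum of 3619 CPM in the dioscin library and 1413 CPM in the TAC library. Among those called, Dcn, decorin, had a ratio of 4.10 (3.96 to 4.23). Not past the rule were Pdgfra at 1.40 (1.26 to 1.56) and Col1a1 at 1.05 (0.966 to 1.14). Postn at 0.927 (0.857 to 1.004) and Col3a1 at 0.797 (0.762 to 0.834) were not past it either. Of 6 atrial muscle markers, 5 were higher, with a sum of 17320 CPM in the dioscin library and 592 CPM in the TAC library. Nppa made up most of both sums, with 12660 CPM in the dioscin library and 588 CPM in the TAC library. Its ratio of 21.5 (21.1 to 22.0) was the smallest of the 5 called. Myl4, Myl7 and Sln had 33721, 30109 and 12433 counts in the dioscin library and 55, 13 and 1 in the TAC library. Of the 5, only Nppa and Myl4 also reached 1 CPM in the TAC library. Mybphl had 3427 counts in the dioscin library and 0 in the TAC library. Bmp10 had 3 in the dioscin library and 0 in the TAC library, too few for a fold. Of 5 ventricular markers 1 was lower, with sums of 11180 CPM in the dioscin library and 12550 CPM in the TAC library. It was Irx4, a ventricular transcription factor, which had 211 counts in the dioscin library and 896 in the TAC library. Not past the rule were Myl2, Myh7 and Hey2, with ratios of 0.785, 0.757 and 0.814, and Myl3 on the other side, at 1.58 (1.56 to 1.61). Of 6 endothelial markers, 2 were higher and 1 lower, with sums of 1463 CPM in the dioscin library and 1492 CPM in the TAC library. Vwf and Pecam1 were higher, with ratios of 3.27 and 2.19, and Egfl7 was lower, at 0.364. Kdr, Tie1 and Cdh5 were not past the rule, at 0.553, 0.694 and 1.01. Of 6 macrophage markers, 2 were higher and 1 lower, with sums of 206.9 CPM in the dioscin library and 103.8 CPM in the TAC library. Higher were Lyve1 and Cd163, with 1260 and 961 counts in the dioscin library and 131 and 253 in the TAC library. Ccr2 was lower, at a ratio of 0.249 (0.188 to 0.323). Cd68, Csf1r and Adgre1 were not past the rule, with ratios of 1.01, 1.10 and 1.64. The part of any of these cell types in the retinoid differences was not tested.

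**Figure D4:**
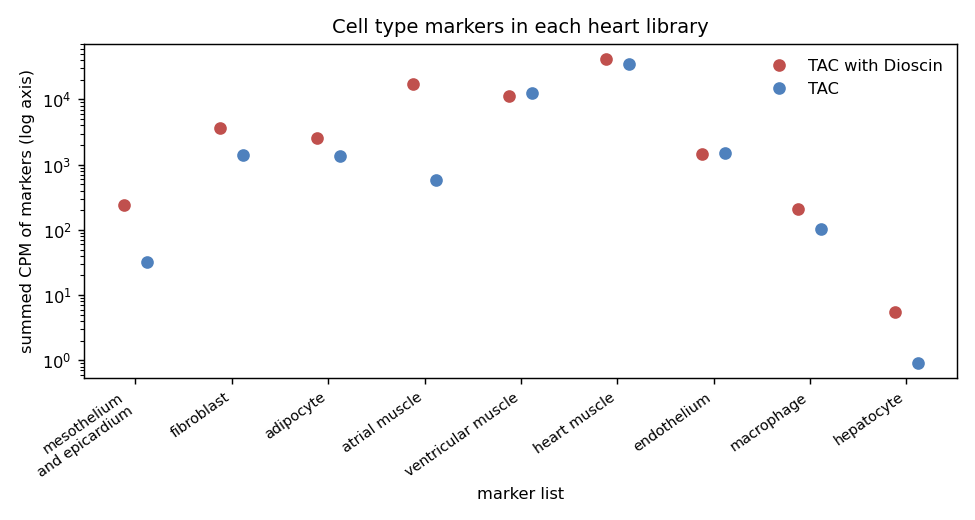
Summed CPM of each list of cell type markers (log axis) in the dioscin library and the TAC library, 1 library each. The mesothelial and epicardial sum stood at 237.1 CPM in the dioscin library and 32.7 CPM in the TAC library, and the atrial sum at 17320 CPM in the dioscin library and 592 CPM in the TAC library. The endothelial sums, 1463 CPM in the dioscin library and 1492 CPM in the TAC library, nearly coincide, although 2 of the 6 markers were higher and 1 lower.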

How the data were processed

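The authors deposited raw read counts by gene, with 1 file for each of 2 heart libraries. Illumina's TruSeq RNA kit was used on 1 ug of RNA, per the labels' protocols. Per the submitters' processing notes, HISAT2 2.1.0, HTSeq and mm10 were used. Annotation release, strand setting and read length are not given in the sources used here. Lines of HTSeq (5) for reads in no gene made up 71.6% of all counted lines in the dioscin library and 73.8% in the TAC library and were left out. Of these, reads with several alignments were 36.5% of all lines in the dioscin library and 38.2% in the TAC library, so genes with near-identical copies lose reads.

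Of 55401 gene identifiers, 55141 matched GENCODE M21 (GRCm38) without their version number. Counts were scaled with TMM factors (edgeR 4.0.16, R 4.3.3). Ratios carry exact Clopper-Pearson intervals, levels exact Poisson intervals (scipy 1.17.1), both at 95%. PCR copies were not told apart, so they cover counting error only. With 1 library per group no model was fitted and no p-value is given. The floor of 3 counts is 0.175 CPM in the dioscin library and 0.174 CPM in the TAC library. Exon lengths are unions over GENCODE transcripts. Start regions come from RefSeq on GRCm38.p6.

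Genes named were the 9 members, the receptors, each pathway gene past the size rule, the most abundant pathway genes per length and a few markers by count, plus some singled out for their role after their values were seen. Members, lists and rules were chosen with earlier results of these data known. One gene of the lists is not reported here and enters no list count. Alternatives were other scalings (total counts, DESeq2 1.42.0 size factors, upper quartile, no mitochondrial genes), filters, fold limits, a pseudocount of 1 and a loess correction for GC content and length.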

Additional observations from a re-analysis of the deposited data

How the results depend on the processing

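No paired analysis was possible because each group has 1 library. For the same reason no replicate could be left out. Of the 9 genes, the count higher in the dioscin library was 4, with 3 under the alternatives that lost Aldh1a2, 5 without the filter or at 1.5-fold (where Dhrs3 joins), and 2 under a filter at 5 CPM, where Aldh1a3 and Rbp4 fall out by construction. The count lower was 1, and 0 with a 4-fold limit, since Cyp26b1 was 3.97-fold lower. Of the other pathway genes, 4 were higher, with 2 when scaled without mitochondrial genes, corrected for GC content and length or at 4-fold, and 10 at 1.5-fold. Lower were 2, with 4 when scaled without mitochondrial genes, 1 under the 5 CPM filter or with a pseudocount of 1, and 0 at 4-fold. Where the alternative's own construction does not show it, the cause was not tested. Of 54 recomputed ratios of single members, 52 stayed inside their main counting interval, and those outside were both of Dhrs3, at 1.33 without mitochondrial genes and 1.41 after the GC and length correction. Aldh1a1 ranged from 4.23 to 4.88 and Rbp4 from 12.6 to 16.5. Without the filter Stra6 counted as higher and Cyp26a1 as lower. Depth limits Rbp4, Stra6, Crabp2, Cyp26a1 and Aldh1a7, each with at most 5 counts in at least 1 library.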

Other observations

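Rbp4, Cyp26a1 and Cyp26c1 are neighbours on chromosome 19. Cyp26c1 ends 4.4 kb before Cyp26a1, and Rbp4 lies 415.1 kb further on, with 3 protein-coding genes between them. Of these, named after their values were seen, Myof, a membrane repair protein, was 2.39-fold higher in the dioscin library (1.94 to 2.97), with 301 counts in the dioscin library and 127 in the TAC library. Cep55, a protein of cell division, had 23 counts in the dioscin library and 45 in the TAC library, a ratio of 0.521 (0.298 to 0.870) that did not reach 2-fold. Ffar4, a fatty acid receptor, had 1 count in the dioscin library and 0 in the TAC library.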
